A study of Mus musculus with 12 samples.

Results

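The transcriptional response of control-transfected IEC4.1 cells to IFN-γ was measured in 6 of the 12 RNA-seq libraries of the study, chosen by their labels: the 3 libraries of scrambled siRNA with IFN-γ (siR_Ctrl + IFN-γ) and the 3 of scrambled siRNA alone (siR_Ctrl). IEC4.1 is a wild-type cell line from the newborn mouse, labelled intestinal epithelial. In the other 6, a mix of 3 siRNAs had been used to target Nostrill, a long noncoding RNA (siR_Nostrill), again without and with IFN-γ. The study describes 24 h of transfection and then 4 h of IFN-γ at 1 ng/ml, while the labels give 24 h for every library. The comparison asks which genes the cytokine raises or lowers when Nostrill is not targeted.

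IFN-γ is the sole type II interferon. It binds the IFNGR1 and IFNGR2 receptor pair, whose kinases JAK1 and JAK2 phosphorylate STAT proteins. STAT dimers bind GAS elements in promoters and induce IRF1 and other transcription factors, which act on ISRE elements of a second set of genes. In intestinal epithelium, the products include GTPases that attack intracellular parasites, the machinery of antigen presentation, chemokines that attract T cells, and inducible nitric oxide synthase.

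Estimated read counts, FPKM and TPM (a level scaled for gene length and sequencing depth) were deposited for 15002 protein-coding genes in each library. Reads counted on genes ranged from 17952446 to 19093204 over the 6 libraries. Levels are given as TPM in the order of replicates 1, 2 and 3. Log2 fold changes, their standard errors (SE) and Benjamini-Hochberg adjusted p-values come from a single edgeR fit of all 12 libraries by quasi-likelihood, after a trend with gene length had been removed from each library, and a gene was called at an adjusted p below 0.05. The p-values measure only the spread between these libraries, which the study describes as biological replicates and the labels do not tie to separate cultures. The labelled cell type was compared with marker genes. Of 6 epithelial markers measured, only Krt19 reached 1 TPM in all 6 libraries, and Krt8 (0.11 to 0.37 TPM), Krt18, Vil1 and Elf3 were near 0, with no read on Cdx2. Epcam, Cdh1, Esrp1, Cldn4 and Cldn7 were not analysed here. Of 10 fibroblast markers 8 exceeded 1 TPM in all 6, with a summed level from 3016 to 4123 TPM in siR_Ctrl and from 3224 to 4206 TPM in siR_Ctrl + IFN-γ libraries. Vim alone made up 2163 to 3076 TPM of these sums, and Lum and Thy1 stayed at or under 0.42 TPM. Most of these marker values go against the epithelial label, and the cells are called IEC4.1 cells below. Of the 8 fibroblast markers tested, Vim was higher with IFN-γ (0.31 ± 0.05 on the log2 scale, SE) and Col3a1 (-0.28), Pdgfra (-0.41) and Pdgfrb (-0.28) were lower. None of the 4 was called with the length trend left in, and 2 of the list were called when replicate 3 of either group was left out. In bulk RNA, fewer cells of a type and less RNA per cell cannot be told apart. Summed leukocyte markers stayed between 2.05 and 3.37 TPM and summed endothelial markers between 0.06 and 0.29 TPM, with Ptprc and Cd4 at or near 0.

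Libraries of one group differed by gene length. In siR_Ctrl replicate 1, long genes were overrepresented, with a fitted deviation from the 12-library mean that ran from -0.55 at 687 nt (the 5% quantile of length) to 0.56 at 7377 nt (the 95% quantile) on the log2 scale. In siR_Ctrl + IFN-γ replicate 3 it rose from -0.27 to 0.28. It ran the other way in siR_Ctrl + IFN-γ replicate 2, from 0.42 to -0.33, and in siR_Ctrl replicate 2, from 0.17 to -0.16, and was nearly flat in the remaining 2. Uncorrected fold changes were lower for longer genes (Spearman correlation across 11883 genes -0.422, with genes not being independent replicates). After the trend was removed that correlation was -0.011, a value near 0 that the removal is built to give. The median SE fell from 0.153 to 0.095. TPM values are not corrected for this trend, so a long gene reads high in siR_Ctrl replicate 1 and low in siR_Ctrl + IFN-γ replicate 2.

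**Figure D1:**
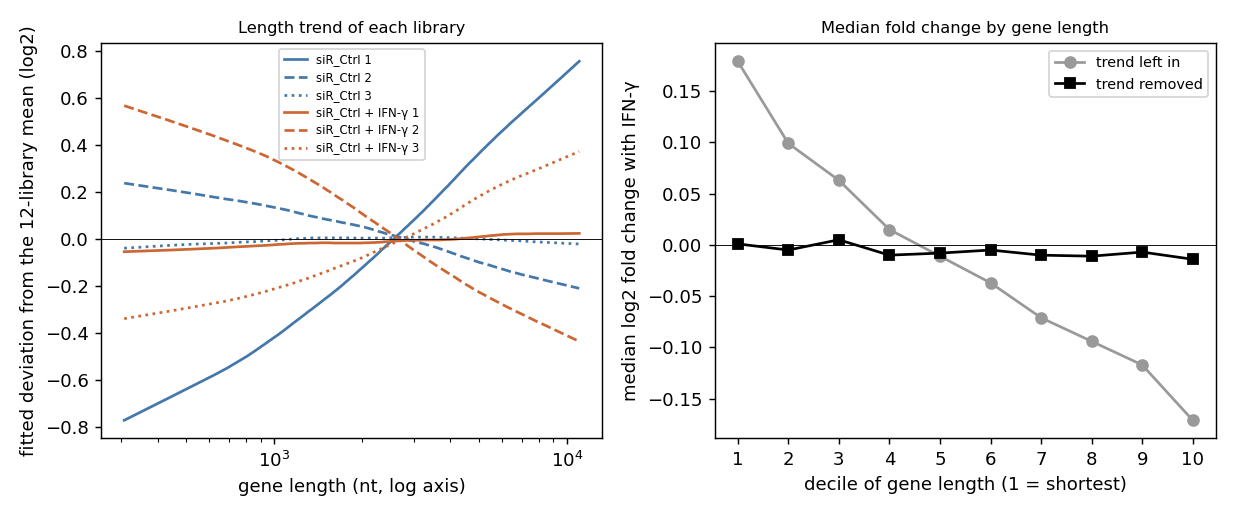
Left, fitted deviation of each of the 6 libraries from the mean of all 12 (log2) against gene length in nucleotides (log axis). Right, median log2 fold change with IFN-γ for genes in each decile of length. With the trend left in the medians run from 0.179 in the shortest to -0.171 in the longest decile. With it removed they stay between -0.014 and 0.005, which the removal is built to give.

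Most of the genes called were higher. Of 11900 genes tested, 963 (8.09%) were higher and 360 (3.03%) lower with IFN-γ, 11.1% in all, and 2709 had an unadjusted p below 0.05. With the length trend left in, 560 (4.71%) were higher and 89 (0.748%) lower, 5.45% in all, which moved the share of higher genes among the calls from 72.8% to 86.3%. Of these, 551 and 81 were also called after its removal, and no gene was called in opposite directions. DESeq2's Wald test, with the trend left in, called 4.36% higher and 1.23% lower (5.59% in all), and limma on log2(FPKM + 1) 3.89% and 0.838% (4.73% in all). All 3 IFN-γ libraries lay above all 3 siR_Ctrl libraries in TPM for 5.23% of the genes tested and below them for 9.62%, with TPM not corrected for the length trend. Among those higher, 310 exceeded a log2 fold change of 1, 147 exceeded 2 and 53 exceeded 4, with a median of 0.60. Only 11 of the 360 lower genes fell by more than 1, and their median change was -0.35. The 2 that fell by more than 2, Ugt1a6b and Pcdhgb5, named after their values were seen, were near 0 with IFN-γ. Ugt1a6b had 0.82, 1.27 and 0.73 TPM without and 0, 0.12 and 0 TPM with IFN-γ, and Pcdhgb5 had 0.33, 0.55 and 0.21 TPM without and 0, 0 and 0.08 TPM with IFN-γ. Both belong to clusters whose genes share exons, and Pcdhgb5 lost its call with the trend left in and in 6 of the 12 fits that left out 1 library (adjusted p up to 0.144, without siR_Ctrl replicate 2). The count of lower genes also rested on single libraries, at 199 without siR_Ctrl replicate 1 and at 192 without siR_Ctrl + IFN-γ replicate 2.

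**Figure D2:**
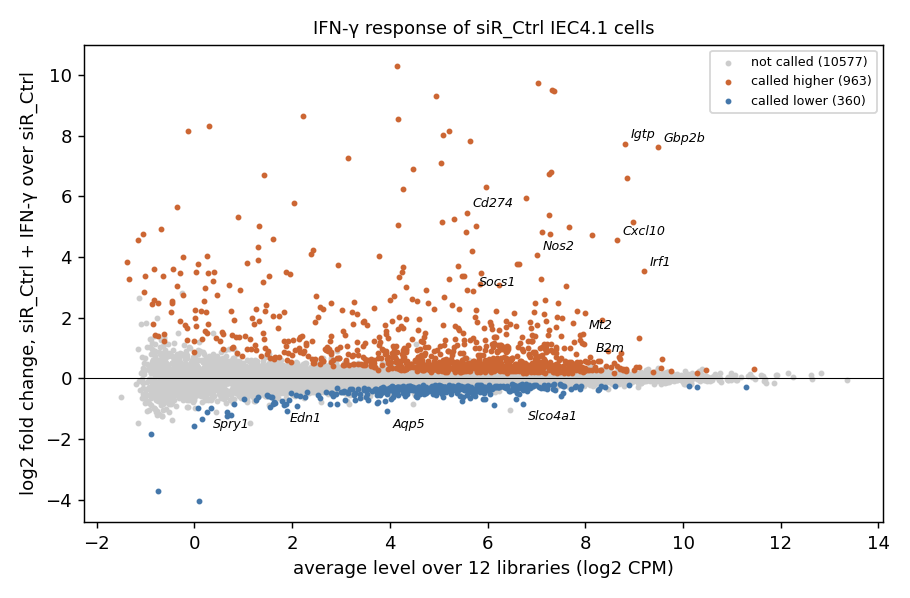
Log2 fold change of siR_Ctrl + IFN-γ over siR_Ctrl for the 11900 genes tested, against the average level over all 12 libraries in log2 CPM (reads scaled for library depth). Orange points were called higher (963), blue points lower (360) and grey points neither (10577). Induced genes reach far above the cloud at every level, whereas nearly all lowered genes lie close under it.

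The signalling components themselves responded unequally. Of 11 receptor, JAK and STAT genes tested, 5 were higher and none lower with IFN-γ (median log2 fold change 0.17, against -0.007 over all genes tested). Counts in this and the following lists stand beside 8.09% called higher and 3.03% called lower over all genes tested. Stat2, a subunit of the factor ISGF3 (gene ID 20847, chromosome 10, 128270498 to 128292853, GRCm38.p6), had 12.1, 7.85 and 10.3 TPM without and 79.6, 62.8 and 105 TPM with IFN-γ (log2 fold change 3.27, SE 0.09, adjusted p = 4.00e-12). The groups were widely separated, and Stat3 reached a log2 fold change of 1.98 ± 0.07 (SE). Jak2 rose less (log2 fold change 0.47, SE 0.06, adjusted p = 1.21e-04) and its TPM values overlapped between the groups. Its call was lost with the length trend left in (adjusted p = 0.15). So was that of Stat5a (0.32), also lost when replicate 2 or 3 of siR_Ctrl, or replicate 3 of siR_Ctrl + IFN-γ, was left out, with adjusted p up to 0.0839. The receptor chains and Jak1 were not called. Ifngr1 had 73.2, 62.7 and 64.4 TPM without and 60.1, 52.6 and 59.3 TPM with IFN-γ (log2 fold change -0.10, SE 0.07, adjusted p = 0.431), Ifngr2 a log2 fold change of 0.01 ± 0.08 and Jak1 one of 0.10 ± 0.07 (SE).

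Interferon regulatory factors followed. Of 6 tested 5 were higher, with Irf3 the exception (median 1.77). Irf1, which carries the signal on to ISRE-bearing genes (gene ID 16362, chromosome 11, 53770014 to 53778374), went from 82.3, 68.9 and 79.5 to 853, 708 and 909 TPM (log2 fold change 3.54, SE 0.06, adjusted p = 4.40e-14). Irf7, an amplifier of type I interferon, had 2.26, 2.39 and 2.79 TPM without and 25.4, 27.4 and 26.9 TPM with IFN-γ (log2 fold change 3.50, SE 0.13, adjusted p = 7.87e-11). Irf9, the DNA-binding subunit of ISGF3, gave 2.30 ± 0.08 and Irf2, an antagonist of IRF1, 1.24 ± 0.21 on the log2 scale (SE).

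Genes that restrain STAT signalling were induced as a small subset of their list. Among 19 brakes tested, 5 were higher and 1 lower, beside 8.09% and 3.03% of all genes tested. Socs1, which binds and inhibits JAK kinases, had 18.3, 15.5 and 18.97 TPM without and 124, 126 and 137 TPM with IFN-γ (log2 fold change 2.87, SE 0.13, adjusted p = 8.34e-10). Socs3 went from 29.9, 22.3 and 25.7 to 120.2, 112 and 154 TPM (log2 fold change 2.47, SE 0.07, adjusted p = 5.09e-12). Usp18, which removes ISG15 and blocks the type I receptor (3.74), and Cish (2.07) were the other called brakes beyond 1 on the log2 scale. Ptpn6 (0.30) and Socs5 (-0.23), the remaining called members, lost their calls with the trend left in and in some fits without 1 library. The tyrosine phosphatases Ptpn1, Ptpn2 and Ptpn11 and the 4 Pias genes were not called.

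The 2 families of interferon-inducible GTPases had the highest list medians. Guanylate-binding proteins, which coat and disrupt pathogen vacuoles, were higher in 9 of 9 tested with a median log2 fold change of 6.74. Their summed level was 24.9, 14.5 and 28.1 TPM without and 1934, 1343 and 2021 TPM with IFN-γ. Gbp2 (gene ID 14469, chromosome 3, 142620663 to 142638008) had 7.71, 3.67 and 8.62 TPM without and 651, 429 and 699 TPM with IFN-γ (log2 fold change 6.62, SE 0.20, adjusted p = 4.41e-12). Gbp2b, the most abundant with IFN-γ, reached 828, 581 and 810.1 TPM from 3.8, 2.58 and 6.13 TPM (log2 fold change 7.62, SE 0.21, adjusted p = 2.20e-12), and the smallest change in the family was 4.19, in Gbp9. Immunity-related GTPases, which act on the same vacuoles, were higher in 13 of 15 tested (median 6.80), and 12 with the length trend left in. Their sum was 37.98, 22.9 and 32.9 TPM without and 2092, 1707 and 2114 TPM with IFN-γ. Igtp (gene ID 16145, chromosome 11, 58199556 to 58207592) had 3.34, 2.58 and 5.26 TPM without and 757, 700.1 and 761 TPM with IFN-γ (log2 fold change 7.74, SE 0.17, adjusted p = 1.78e-13). Irgm1, which protects host membranes from the effector GTPases, already stood at 17.2, 13.2 and 14.98 TPM and reached 390.4, 299.8 and 407 TPM (log2 fold change 4.72, SE 0.08, adjusted p = 4.40e-14). For members with a library at 0 reads in siR_Ctrl cells only levels are given. Iigp1 had 0, 0 and 0.46 TPM without and 131, 93.3 and 142 TPM with IFN-γ, and Tgtp2 had 0, 0 and 0.77 TPM without and 203, 144 and 184 TPM with IFN-γ. Some members are nearly identical copies, such as Tgtp1 and Tgtp2 or Gbp2 and Gbp2b. How reads were divided between them is not known, which makes values of single genes less certain than the sums.

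**Figure D3:**
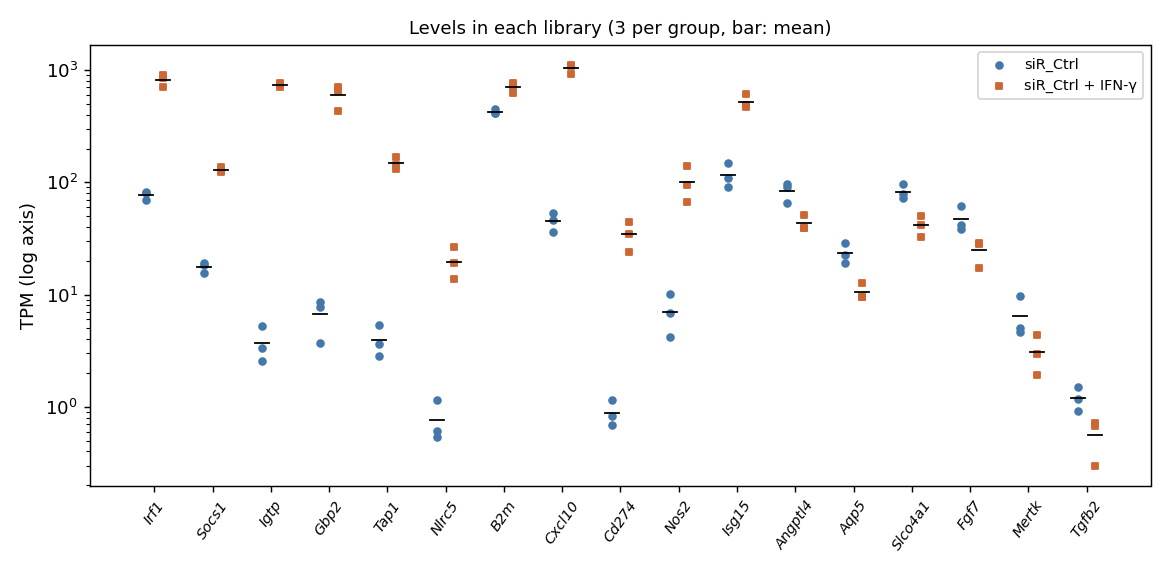
TPM (log axis) of 17 genes in each siR_Ctrl (blue circles) and siR_Ctrl + IFN-γ (orange squares) library, with the mean of 3 libraries as a bar. The 11 induced genes on the left, from Irf1 to Isg15, do not overlap between the groups. Neither do the 6 lowered genes on the right, from Angptl4 to Tgfb2, which were taken from genes chosen for having no overlap. The shift is smaller for the lowered genes than for the induced ones other than B2m.

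Promoters of the induced genes were read from the RefSeq promoter table (GRCm38.p6, 250 bases before to 50 after each start). It held 742 of the 963 genes called higher, 280 of the 360 called lower and 9521 of all genes tested. Each was searched for a GAS match, TTCNNNGAA, which reads the same on both strands, and for an ISRE match, TTTC followed by 2 free bases and TTTC again, or on the other strand GAAA, 2 free bases and GAAA. Matches of both motifs could overlap, and a gene counted when any of its windows held the motif. GAS matches stood in 14.4% of genes called higher, 8.29% of those tested and 9.55% of all 27025 genes of the table. For ISRE the shares were 14.4%, 3.84% and 3.99%. Among genes induced by more than 2 on the log2 scale, 42.6% had an ISRE and 19.8% a GAS match. Genes called lower had 2.50% and 6.79%. Seen from the promoter, 57.7% of the 52 tested genes with both motifs were called higher, 24.5% of the 314 with only an ISRE, 10.4% of the 737 with only a GAS and 6.63% of the 8418 with neither. Such a match describes the letters and is not a site shown to be bound.

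The 8 windows that follow, chosen after the values were seen, show how these motifs lie before the start of strongly induced genes. Each gives the 150 bases before the start, 5′ to 3′ on the gene's strand, with GAS and ISRE matches in capitals. For a gene with several starts in the table, a window with the most kinds of motif was printed, so the start itself was picked for its motifs. Irf1 at chr11:53769864-53770013 (plus strand) has a GAS match alone, 90 bases before the start. Socs1 at chr16:10785537-10785686 (minus strand), Gbp2 at chr3:142620513-142620662 (plus strand) and Isg15 at chr4:156200819-156200968 (minus strand) have ISRE matches alone, overlapping ones in Socs1 and Isg15. Gbp7 at chr3:142530186-142530335 (plus strand) has 2 GAS matches and an ISRE. Igtp at chr11:58199406-58199555 (plus strand), Irgm2 at chr11:58214827-58214976 (plus strand) and Tgtp1 at chr11:48992247-48992396 (minus strand) share one arrangement, a GAS match whose first base lies 11 bases before the first base of an ISRE match.
Irf1: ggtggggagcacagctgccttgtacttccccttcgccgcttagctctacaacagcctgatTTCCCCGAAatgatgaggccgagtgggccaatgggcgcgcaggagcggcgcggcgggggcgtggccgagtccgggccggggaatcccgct
Socs1: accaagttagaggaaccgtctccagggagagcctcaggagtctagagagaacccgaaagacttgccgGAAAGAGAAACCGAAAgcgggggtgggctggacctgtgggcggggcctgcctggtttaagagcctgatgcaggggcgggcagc
Gbp2: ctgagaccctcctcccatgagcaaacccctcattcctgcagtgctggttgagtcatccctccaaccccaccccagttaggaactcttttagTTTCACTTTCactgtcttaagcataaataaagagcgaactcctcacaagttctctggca
Isg15: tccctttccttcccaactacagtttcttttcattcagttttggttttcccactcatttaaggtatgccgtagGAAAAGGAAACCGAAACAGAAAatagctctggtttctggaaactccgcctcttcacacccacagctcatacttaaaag
Gbp7: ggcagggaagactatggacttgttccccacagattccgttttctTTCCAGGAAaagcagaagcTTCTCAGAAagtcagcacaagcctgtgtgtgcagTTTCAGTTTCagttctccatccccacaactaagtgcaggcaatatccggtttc
Igtp: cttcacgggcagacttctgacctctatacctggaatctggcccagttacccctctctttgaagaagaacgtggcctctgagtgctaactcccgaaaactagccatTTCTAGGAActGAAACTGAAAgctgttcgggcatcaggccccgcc
Irgm2: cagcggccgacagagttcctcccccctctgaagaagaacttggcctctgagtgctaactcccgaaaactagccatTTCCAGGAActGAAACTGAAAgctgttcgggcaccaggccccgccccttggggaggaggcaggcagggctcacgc
Tgtp1: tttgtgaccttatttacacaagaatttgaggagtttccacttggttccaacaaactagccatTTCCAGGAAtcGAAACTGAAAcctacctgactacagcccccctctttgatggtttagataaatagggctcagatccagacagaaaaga
The last 3 belong to immunity-related GTPases. Motif starts within 15 bases of each other were found in 6 of 11 called members of that family with a window, in 14 of the 742 genes called higher (1.89%) and in 18 of the 9521 tested (0.189%). Nlrc5, Ciita and Nos2 were not in the promoter table.

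Some strongly induced genes lay near one another, though whether more often than genes in general was not tested. Of the 147 genes induced by more than 2 on the log2 scale, 73 (49.7%) had another of them within 100000 bases. Among all 962 genes called higher with a position, 394 (41.0%) had another called higher that near. For lowered genes with a position it was 34 of 359 (9.47%). These sets differ in size, and the share for all genes tested was not worked out. In all, 12 runs held at least 3 genes induced by more than 2 on the log2 scale. On chromosome 11, Irgm1, Tgtp1, Tgtp2, Ifi47 and 5 further genes lay between 48865245 and 49096987, and Gm12250, Igtp and Irgm2 between 58183843 and 58222783. Gbp2, Gbp2b, Gbp3, Gbp5 and Gbp7 lay on chromosome 3 from 142496934 to 142638008, and Gbp4, Gbp6, Gbp9 and Gbp10 on chromosome 5 from 105076464 to 105295871. Psmb8, Psmb9, Tap1 and Tap2 shared 34182030 to 34216321 on chromosome 17. Many such neighbours are duplicated genes, which can share reads.

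Antigen presentation by MHC class I was induced from peptide production to the chain itself. Of 16 genes for the immunoproteasome and peptide loading 10 were higher (median 1.21), while the general chaperones Calr, Canx and Pdia3 were not called. Tap1, a subunit of the peptide transporter, had 3.65, 2.86 and 5.39 TPM without and 142, 133 and 169 TPM with IFN-γ (log2 fold change 5.39, SE 0.16, adjusted p = 4.91e-12). Psmb9, a catalytic subunit of the immunoproteasome, had 3.44, 4.05 and 4.7 TPM without and 131, 161 and 151 TPM with IFN-γ (log2 fold change 5.14, SE 0.12, adjusted p = 1.94e-13). Of 34 constitutive proteasome subunits 2 were called, Psma5 (0.26) and Psmb4 (0.25), and neither with the length trend left in. Over all genes tested 8.09% were called higher. The call of Psmb4 was also lost when replicate 1 or 3 of siR_Ctrl, replicate 1 or 2 of siR_Ctrl + IFN-γ or replicate 2 of siR_Nostrill + IFN-γ was left out (adjusted p up to 0.14). In the class I list 13 of 16 were higher (median 0.92). Nlrc5, the class I transactivator, had 1.16, 0.54 and 0.61 TPM without and 18.9, 13.8 and 26.3 TPM with IFN-γ (log2 fold change 5.02, SE 0.09, adjusted p = 5.21e-14). Chains that were already abundant changed less. B2m had 447, 411 and 414 TPM without and 714, 627 and 767 TPM with IFN-γ (log2 fold change 0.70, SE 0.12, adjusted p = 0.00135), and H2-K1 had 325, 304 and 337 TPM without and 519, 528 and 571 TPM with IFN-γ (log2 fold change 0.83, SE 0.05, adjusted p = 3.84e-08). Class I chains are closely similar, so the split of reads among H2-K1, H2-Q and H2-T genes is uncertain.

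The class II pathway responded at low levels. Ciita, its master regulator, had 0.05, 0.07 and 0.07 TPM without and 0.26, 0.25 and 0.26 TPM with IFN-γ (log2 fold change 2.25, SE 0.38, adjusted p = 0.00101), so that the groups separate at levels far under 1 TPM. Cd74, the invariant chain, had 11.9, 9.9 and 12.6 TPM without and 16.3, 16.5 and 13.6 TPM with IFN-γ (log2 fold change 0.47, SE 0.12, adjusted p = 0.0218). That call was lost with the length trend left in. It was also lost without siR_Ctrl replicate 2 (adjusted p = 0.109) and without replicate 1 or 2 of siR_Ctrl + IFN-γ. Rfx5 (0.63, lost with the trend left in) was the only other of 7 tested that was called. No class II chain that presents peptide was among the 7, and H2-Eb1, one such chain, did not pass the filter on low counts.

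Secreted signals divided. Of 15 chemokines 10 were higher and none lower (median 0.54). Cxcl10, a ligand of the chemokine receptor CXCR3 on T cells, had 46.1, 36.2 and 53.5 TPM without and 1117, 923 and 1098 TPM with IFN-γ (log2 fold change 4.55, SE 0.15, adjusted p = 1.51e-11). Cxcl9, another CXCR3 ligand, was at 0, 0 and 0.03 TPM without and 18.7, 13.7 and 15.2 TPM with IFN-γ, with 2 of the 3 siR_Ctrl libraries at 0. Ccl2, a monocyte attractant, was high in both groups, 539, 520.0 and 604 TPM without and 1164, 964 and 1057 TPM with IFN-γ (log2 fold change 0.90, SE 0.12, adjusted p = 7.25e-05). Among 23 cytokines and growth factors 5 were higher and 5 lower, beside 8.09% and 3.03% of all genes tested. Il15, which sustains intraepithelial lymphocytes, had 15.3, 13.1 and 14.7 TPM without and 33.3, 27.9 and 28.3 TPM with IFN-γ (log2 fold change 1.06, SE 0.12, adjusted p = 2.81e-05), and Il6 had 0.87, 0.93 and 1.33 TPM without and 3.36, 2.02 and 3.27 TPM with IFN-γ (log2 fold change 1.47, SE 0.33, adjusted p = 0.00854). On the lower side, Tgfb2 had 1.51, 0.91 and 1.17 TPM without and 0.68, 0.3 and 0.72 TPM with IFN-γ (log2 fold change -0.86, SE 0.17, adjusted p = 0.00386), and Edn1, the vasoconstrictor endothelin-1, had 6.19, 4.51 and 3.76 TPM without and 2.48, 2.07 and 2.56 TPM with IFN-γ (log2 fold change -0.89, SE 0.18, adjusted p = 0.00485). Bmp2 gave -1.25, a call lost when siR_Ctrl replicate 1 or siR_Ctrl + IFN-γ replicate 3 was left out (adjusted p up to 0.0615). Lif (0.54), Tgfa (0.61) and Csf1 (0.22) on the higher side and Bmp4 (-0.49) and Hbegf (-0.30) on the lower side lost their calls with the trend left in. Without siR_Ctrl replicate 3 the list had 6 calls in place of 10. Complement and serpin genes were higher in 11 of 18 (median 1.23, and 1.23 with Serpina3i at its bound). C1s1, a protease of the C1 complex, had 21.1, 10.8 and 13.9 TPM without and 63.7, 47.4 and 73.9 TPM with IFN-γ (log2 fold change 2.21, SE 0.10, adjusted p = 4.55e-10). Serpina3i had no read in any siR_Ctrl library and 2.05, 1.72 and 2.44 TPM with IFN-γ, at least 38.8-fold higher against a floor of 3 reads over the group.

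Genes often assigned to type I interferon rose as well. Of 39 antiviral interferon-stimulated genes, 36 were higher (median 1.93). Isg15, a ubiquitin-like modifier, had 90.9, 109 and 148 TPM without and 489, 613 and 470.0 TPM with IFN-γ (log2 fold change 2.13, SE 0.11, adjusted p = 2.14e-09), and Ifitm3, which blocks viral entry, had 387, 449 and 506 TPM without and 1027, 1033 and 976 TPM with IFN-γ (log2 fold change 1.12, SE 0.08, adjusted p = 1.89e-07). Oas2, a sensor of double-stranded RNA that activates RNase L, reached 1.42, 1.55 and 2.33 TPM from 0.03, 0.08 and 0.13 TPM. Sensors of nucleic acids and microbes were higher in 16 of 22 (median 1.35). Zbp1, a sensor of Z-form nucleic acid, had 2.59, 1.27 and 1.67 TPM without and 45.9, 53.9 and 53.8 TPM with IFN-γ (log2 fold change 5.07, SE 0.17, adjusted p = 1.63e-11), and Ifi204 had 58.5, 39.6 and 46.8 TPM without and 174, 153 and 206 TPM with IFN-γ (log2 fold change 2.02, SE 0.09, adjusted p = 3.98e-10). Mavs, Cgas and Tlr4 were not called. Genes for PARP and ISG15 conjugation were higher in 19 of 21 (median 1.76), among them Parp14 (4.76 ± 0.09, SE) and Dtx3l (3.12 ± 0.14).

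A list of nitric oxide and tryptophan enzymes, which also holds Acod1, had 4 higher and none lower of 10 tested (median 0.33). For the lists of this paragraph, 8.09% of all genes tested were called higher and 3.03% lower. Nos2, inducible nitric oxide synthase (gene ID 18126, chromosome 11, 78920787 to 78960226), had 10.03, 4.23 and 6.9 TPM without and 95.6, 66.2 and 139 TPM with IFN-γ (log2 fold change 4.07, SE 0.15, adjusted p = 4.65e-11). Wars, the tryptophanyl-tRNA synthetase, had 42.3, 30.6 and 34.7 TPM without and 125, 103 and 129.8 TPM with IFN-γ (log2 fold change 1.89, SE 0.06, adjusted p = 8.12e-12), while Ido2 and Acod1, which were also higher, stayed at or under 2.12 TPM in every library. The arginine supply genes Ass1, Asl and Slc7a1 and the cofactor gene Gch1 were not called. Of 32 cell death genes, 17 were higher and 1, Gsdme (-0.33), lower, a call lost with the trend left in and in some fits without 1 library. Apol6 had 0.14, 0.1 and 0.34 TPM without and 48.7, 43.03 and 51.98 TPM with IFN-γ (log2 fold change 8.16, SE 0.19, adjusted p = 2.07e-13), and Fas, a death receptor, had 5.95, 4.65 and 4.97 TPM without and 30.8, 32.5 and 32.6 TPM with IFN-γ (log2 fold change 2.73, SE 0.12, adjusted p = 4.46e-10). Casp4, Mlkl, Ripk1 and Gsdmd were among those higher, with log2 fold changes from 0.80 (Gsdmd) to 1.95 (Casp4). Casp8, Bax, Bcl2l1 and Mcl1 were not called. At the cell surface, 9 of 16 checkpoint ligands and adhesion genes were higher. Cd274, which encodes PD-L1, had 1.14, 0.83 and 0.69 TPM without and 34.7, 23.8 and 44.4 TPM with IFN-γ (log2 fold change 5.46, SE 0.11, adjusted p = 6.15e-14), whereas Vcam1 and Cd47 changed by 0.40 and 0.51 on the log2 scale.

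**Figure D4:**
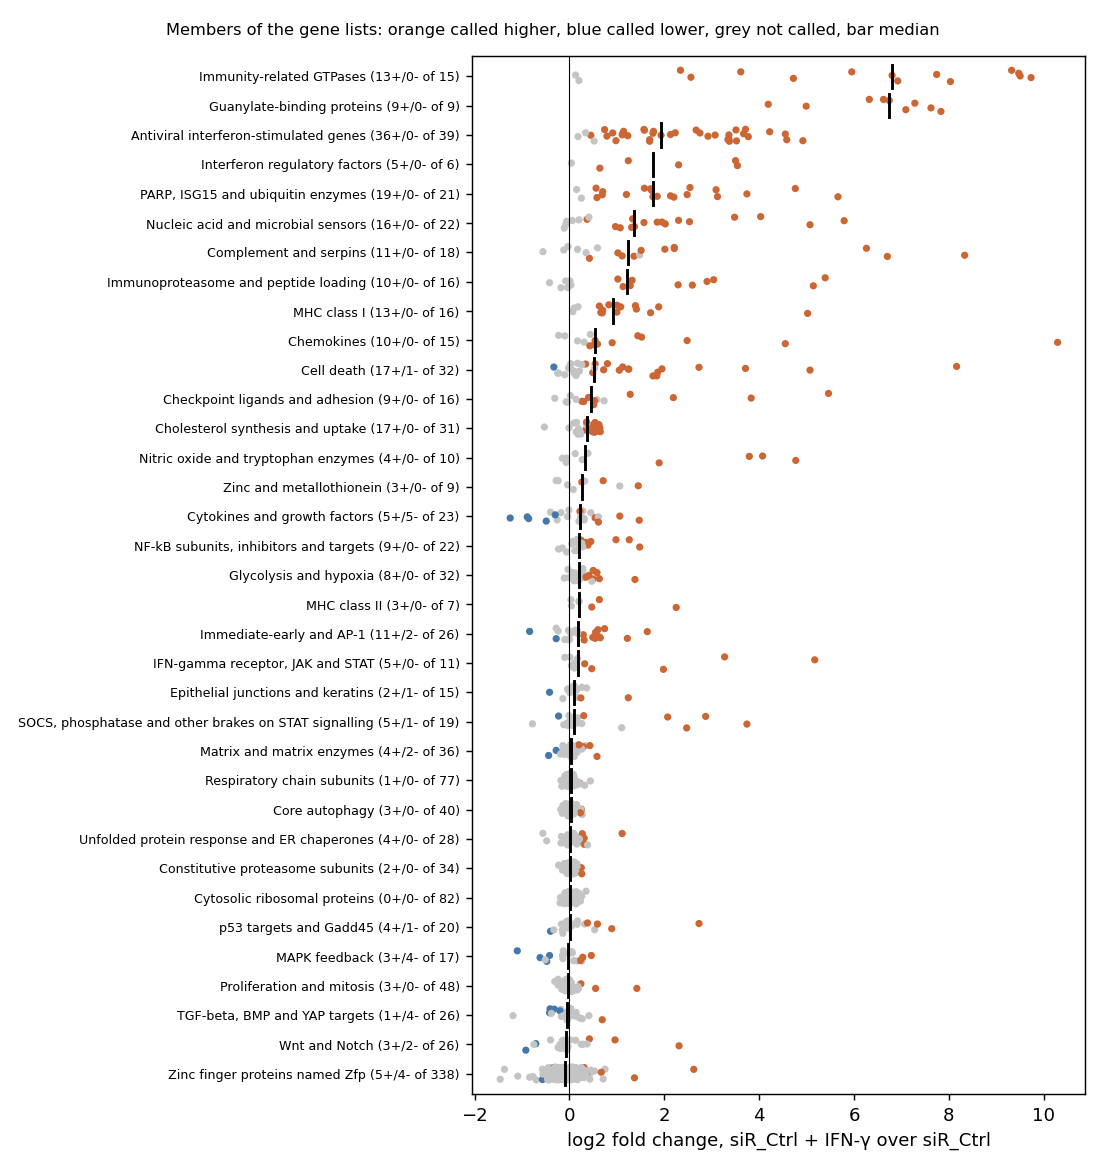
Log2 fold changes of the members tested in 35 gene lists, sorted by the list median (black bar). Orange members were called higher, blue lower and grey neither, and the counts stand beside each list name. The interferon effector lists extend to the right with nearly all members called, while ribosomal, respiratory and autophagy genes gather at 0.

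Outside the interferon lists, the changes in signalling genes were smaller. The counts stand beside 8.09% called higher and 3.03% called lower over all genes tested. Of 22 NF-κB subunits, inhibitors and targets 9 were higher, but 4 with the length trend left in. Bcl3, a nuclear IκB protein, had 13.9, 8.33 and 12.4 TPM without and 31.2, 24.5 and 34.4 TPM with IFN-γ (log2 fold change 1.48, SE 0.14, adjusted p = 2.32e-06). Among the subunits Nfkb1 was called higher (0.39), and Rel, Rela, Relb and Nfkb2 were not called. Of 26 immediate-early and AP-1 genes, 11 were higher and 2 lower (7 and 2 with the trend left in). Atf3, a stress-induced bZIP factor, had 9.9, 6.54 and 7.44 TPM without and 21.96, 22.2 and 24.03 TPM with IFN-γ (log2 fold change 1.64, SE 0.12, adjusted p = 1.18e-07), and Junb had 159.8, 127 and 161 TPM without and 204, 182 and 229.9 TPM with IFN-γ (log2 fold change 0.55, SE 0.07, adjusted p = 7.99e-05). Egr3 went the other way, with 5.39, 2.46 and 3.61 TPM without and 1.87, 1.31 and 2.31 TPM with IFN-γ (log2 fold change -0.84, SE 0.14, adjusted p = 7.27e-04), and so did Srf (-0.28), whose call was lost in some fits without 1 library. Among MAPK feedback genes 3 were higher and 4 lower of 17, and 1 and 2 with the trend left in. Spry1, an inhibitor of receptor tyrosine kinase signalling, had 1.63, 0.85 and 1.42 TPM without and 0.6, 0.49 and 0.52 TPM with IFN-γ (log2 fold change -1.10, SE 0.25, adjusted p = 0.0103), and Dusp6, a phosphatase of ERK, gave 0.46 ± 0.09. Dusp4 (-0.62), Dusp1 (-0.48), Dusp16 (0.28), Spred1 (0.23) and Dusp14 (-0.42) lost their calls with the trend left in. This list had 7 calls in all, but 3 without siR_Ctrl replicate 1 and 4 when siR_Ctrl replicate 3, siR_Ctrl + IFN-γ replicate 1 or siR_Nostrill + IFN-γ replicate 2 was left out. In the p53 and Gadd45 list, Cdkn1a, the cell cycle inhibitor p21, had 109, 81.8 and 99.8 TPM without and 136, 155 and 211 TPM with IFN-γ (log2 fold change 0.89, SE 0.13, adjusted p = 2.19e-04). Gadd45b gave 0.59 ± 0.07 and Sesn1, the only one of 20 called lower, -0.40 ± 0.09 (SE), and Fas is a member too. Gadd45g had 47.6, 51.1 and 54.2 TPM without and 64.9, 73.2 and 59.9 TPM with IFN-γ (log2 fold change 0.38, SE 0.09, adjusted p = 0.0133), a call lost with the trend left in (adjusted p = 0.257) and when replicate 2 of either group was left out (adjusted p up to 0.0583).

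In the TGF-β, BMP and YAP list 1 gene was higher, Ccn2 (0.69 ± 0.10), and 4 were lower of 26, none of the 4 with the trend left in, by DESeq2 or by limma, beside 3.03% of all genes tested called lower. Ankrd1, a YAP target, had 69.8, 69.2 and 67.9 TPM without and 52.2, 45.9 and 48.9 TPM with IFN-γ (log2 fold change -0.41, SE 0.07, adjusted p = 0.00148) and kept its call in each fit that left out 1 library, while Id2 (-0.42), Tgfbr1 (-0.32) and Tgfbr2 (-0.20) lost theirs in some. This list had 2 calls without siR_Ctrl replicate 1 and 3 without siR_Ctrl replicate 3, siR_Ctrl + IFN-γ replicate 2, siR_Nostrill replicate 2 or siR_Nostrill + IFN-γ replicate 2 or 3. Wnt and Notch genes had 3 higher and 2 lower of 26, beside 8.09% higher and 3.03% lower over all genes tested. Notch1, a receptor, had 1.35, 0.44 and 0.7 TPM without and 2.94, 2.01 and 4.58 TPM with IFN-γ (log2 fold change 2.31, SE 0.16, adjusted p = 1.12e-07), and its ligand Jag1 had 2.48, 1.02 and 1.36 TPM without and 0.61, 0.48 and 0.99 TPM with IFN-γ (log2 fold change -0.92, SE 0.17, adjusted p = 0.00211). Jag1 was lost with the trend left in (adjusted p = 0.0511). Jag2, another ligand, gave 0.96 ± 0.19 and Fzd7, a Wnt receptor, 0.42 ± 0.08 (SE), the latter lost with the trend left in. Lef1, a transcription factor of the Wnt pathway, gave -0.71, a call that needed siR_Ctrl replicate 1 and siR_Ctrl + IFN-γ replicate 2 (adjusted p up to 0.0594 without either).

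The 20 lowered genes that were largest in change, at an average log2 CPM above 1 and with no overlap in TPM, ranged only from -1.09 to -0.71 on the log2 scale. No overlap in either direction was seen for 14.8% of all genes tested. Slc14a1, a urea transporter, had 3.48, 1.74 and 2.09 TPM without and 1.12, 0.75 and 1.1 TPM with IFN-γ (log2 fold change -1.09, SE 0.15, adjusted p = 1.82e-04). Aqp5, a water channel, had 22.4, 28.6 and 19.1 TPM without and 12.6, 9.51 and 9.55 TPM with IFN-γ (log2 fold change -1.09, SE 0.16, adjusted p = 2.98e-04), and Slco4a1, an organic anion transporter, had 96.1, 78.8 and 73.1 TPM without and 50.05, 32.8 and 41.6 TPM with IFN-γ (log2 fold change -0.85, SE 0.15, adjusted p = 0.00157). Angptl4, a secreted inhibitor of lipoprotein lipase, had 96.7, 90.9 and 65.1 TPM without and 51.4, 38.95 and 38.8 TPM with IFN-γ (log2 fold change -0.87, SE 0.13, adjusted p = 4.15e-04). That these 4 did not overlap between the groups follows from the rule by which the 20 were chosen. Fgf7, a growth factor for epithelial cells, had 60.9, 38.01 and 41.6 TPM without and 28.3, 17.2 and 28.8 TPM with IFN-γ (log2 fold change -0.76, SE 0.11, adjusted p = 1.80e-04). Mertk, a receptor kinase for the uptake of dying cells, had 9.63, 4.61 and 5.08 TPM without and 2.95, 1.94 and 4.36 TPM with IFN-γ (log2 fold change -0.80, SE 0.14, adjusted p = 0.00148). The other lowered genes of the 20 that kept their call in all 12 fits without 1 library were Cdh26 (-0.85), Mab21l1 (-0.85) and Mrgprf (-0.74), beside Egr3, Edn1, Jag1 and Tgfb2 above. The remaining 7, among them Ccdc88c, Gm40367, Lef1, Medag, Prdm11 and Slc1a3, lost it in some of those fits. With the trend left in 5 of the 20 lost it, among them Ccdc88c, Gm40367, Jag1 and Slc1a3.

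Metabolic genes changed in small steps. Over all genes tested 8.09% were called higher and 3.03% lower. Of 31 genes for cholesterol synthesis and uptake 17 were higher and none lower, with a median log2 fold change of 0.37 and called changes from 0.34 to 0.65. Fdft1, squalene synthase, had 55.9, 47.9 and 62.1 TPM without and 69.9, 72.7 and 86.9 TPM with IFN-γ (log2 fold change 0.65, SE 0.14, adjusted p = 0.00562). Acat2, a thiolase at the head of the pathway, had 172, 147 and 178 TPM without and 189, 201 and 278 TPM with IFN-γ (log2 fold change 0.54, SE 0.10, adjusted p = 0.0027), and Cyp51, the lanosterol demethylase, had 42.95, 27.3 and 36.6 TPM without and 42.9, 37.3 and 60.1 TPM with IFN-γ (log2 fold change 0.63, SE 0.11, adjusted p = 0.00118). The groups did not overlap in TPM for 5 of the 17, and siR_Ctrl + IFN-γ replicate 3 was the highest of the 6 libraries for 16 of them. With the trend left in 7 members were called, with DESeq2 10, and 11 when either siR_Ctrl replicate 1 or siR_Ctrl + IFN-γ replicate 3 was left out. The part of that 1 library in the result was not tested further. Srebf2 was among those called higher (0.36), and Insig1 and Srebf1 were not called. In the glycolysis and hypoxia list 8 of 32 were higher, and 5 with the trend left in. Hk2, hexokinase 2, had 34.5, 16.1 and 22.1 TPM without and 49.7, 35.5 and 74.0 TPM with IFN-γ (log2 fold change 1.38, SE 0.09, adjusted p = 5.59e-08), and Hk1 gave 0.50 ± 0.07. That list had 4 calls when replicate 2 or 3 of siR_Ctrl, or replicate 3 of siR_Ctrl + IFN-γ, was left out. Mt1 and Mt2, metallothioneins that bind zinc, rose from a high level. Mt2 had 515, 559 and 571 TPM without and 1555, 1768 and 1488 TPM with IFN-γ (log2 fold change 1.45, SE 0.08, adjusted p = 8.45e-09), and Mt1 gave 0.71 ± 0.11. Slc39a1, a zinc importer, was the only other of 9 called (0.26). Trib3 led 4 of 28 genes of the unfolded protein response (25.6, 20.6 and 23.7 TPM without and 41.5, 47.1 and 50.2 TPM with IFN-γ, log2 fold change 1.11 ± 0.13), while Atf4, Atf6 and Syvn1 (0.27 to 0.31) were not called with the trend left in.

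Large housekeeping groups stayed near the median of all genes once length was accounted for. Ribosomal and respiratory chain genes are short (median length 478 and 471 nt) and took part in fitting the trend. A shift shared by short genes would therefore have been removed with it. For the lists below, 8.09% of all genes tested were called higher and 3.03% lower. None of 82 cytosolic ribosomal protein genes was called in edgeR, with 3 at an unadjusted p below 0.05 and 0 by DESeq2 or limma, and their median log2 fold change was 0.01 after and 0.21 before removal of the trend. For 77 respiratory chain subunits the medians were 0.03 and 0.21, with 1 called (Cox7b, 0.22), a call lost with the trend left in and in every fit that left out 1 library but 2, those without siR_Ctrl replicate 2 and without siR_Ctrl + IFN-γ replicate 1 (adjusted p up to 0.17, without siR_Ctrl replicate 1). Core autophagy genes had 3 called of 40 (Atg2a, Atg12 and Nbr1, from 0.23 to 0.25), none with the trend left in. None was called when siR_Ctrl replicate 3 or siR_Ctrl + IFN-γ replicate 2 was left out, and 1 when siR_Ctrl replicate 2, siR_Ctrl + IFN-γ replicate 3 or siR_Nostrill + IFN-γ replicate 3 was. Of 48 proliferation genes 3 were higher, of which Cdk6 (18.1, 9.24 and 10.7 TPM without and 27.3, 19.2 and 31.1 TPM with IFN-γ, log2 fold change 1.42 ± 0.15) was the largest, followed by Ccnd2 (0.55) and Top2a (0.24), both lost with the trend left in. Epithelial junction and keratin genes had 3 called of 15, and Muc1, a membrane mucin, was the only one called with the trend left in (1.24 ± 0.23) and with replicate 2 or 3 of siR_Ctrl, or replicate 1 of siR_Ctrl + IFN-γ, left out. Cldn12 (0.24) and Krt80 (-0.42) were the others. In the matrix list 4 were higher (Timp3, Adamts1, Tnc and Plaur, 0.20 to 0.58) and 2 lower (Plau and Col3a1, -0.44 and -0.28) of 36, none with the trend left in. In that list 3 were called without replicate 1 and 2 without replicate 3 of either group. Among 338 zinc finger genes named Zfp 5 were higher and 4 lower (2 and 1 with the trend left in), and Zfp36, which encodes the mRNA-destabilizing protein tristetraprolin, had 6.31, 4.64 and 5.42 TPM without and 29.4, 26.1 and 39.6 TPM with IFN-γ (log2 fold change 2.62, SE 0.13, adjusted p = 1.88e-09).

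A share of the response lay outside all lists. Of the 147 genes induced by more than 2 on the log2 scale, 56 were on no list, and of the 360 lower genes 333 were on none. The 4 described here were chosen from the former after their values were seen. Tubb3, a tubulin known from neurons (gene ID 22152, chromosome 8, 123411553 to 123422015), had 8.95, 8.7 and 10.97 TPM without and 255, 248.6 and 263 TPM with IFN-γ (log2 fold change 4.82, SE 0.10, adjusted p = 8.32e-14). Fst, which encodes follistatin, an activin antagonist (gene ID 14313, chromosome 13, 114452262 to 114458989), had 2.54, 2.28 and 1.57 TPM without and 58.95, 41.96 and 63.6 TPM with IFN-γ (log2 fold change 4.82, SE 0.14, adjusted p = 2.60e-12). Ly6a, the surface protein Sca-1, had 21.4, 20.6 and 30.6 TPM without and 339, 345 and 312 TPM with IFN-γ (log2 fold change 3.77, SE 0.11, adjusted p = 2.53e-12). Batf2, a bZIP factor of interferon responses, was at 0.17, 0 and 0.09 TPM without and 36.7, 35.7 and 32.9 TPM with IFN-γ. None of the 4 overlapped between the groups.

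The siR_Nostrill and siR_Nostrill + IFN-γ libraries give the same contrast in samples that the fold changes above do not use as groups. There, 1328 genes (11.2%) were higher and 928 (7.80%) lower. Of the 963 genes higher in siR_Ctrl cells, 912 had the same sign (94.7%) and 703 were called higher (73.0%). Of the 310 that exceeded 1 on the log2 scale, 309 had the same sign and 293 were called. Of the 360 lowered genes, 315 had the same sign (87.5%) and 131 were called lower (36.4%). All 11 that fell by more than 1 had the same sign, but 2 were called lower (median -1.25 in siR_Ctrl and -0.58 in siR_Nostrill cells). Median changes of the 360 were -0.35 and -0.20. Irf1 3.54 and 3.31, Igtp 7.74 and 7.04, and Nos2 4.07 and 3.88 on the log2 scale in siR_Ctrl and siR_Nostrill cells. Angptl4 gave -0.87 and -0.15, and Fgf7 -0.76 and -0.55. The cholesterol list had a median of 0.37 in siR_Ctrl and 0.02 in siR_Nostrill cells, where 2 of its members were higher and 1 lower. The difference itself was tested as the interaction of siRNA and IFN-γ. No gene passed it in edgeR (0 called, 2265 at an unadjusted p below 0.05, smallest adjusted p = 0.125), in DESeq2 (0, with 1485 unadjusted) or in limma (0, with 1310 unadjusted). In the cholesterol list 16 of 31 had an unadjusted interaction p below 0.05.

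**Figure D5:**
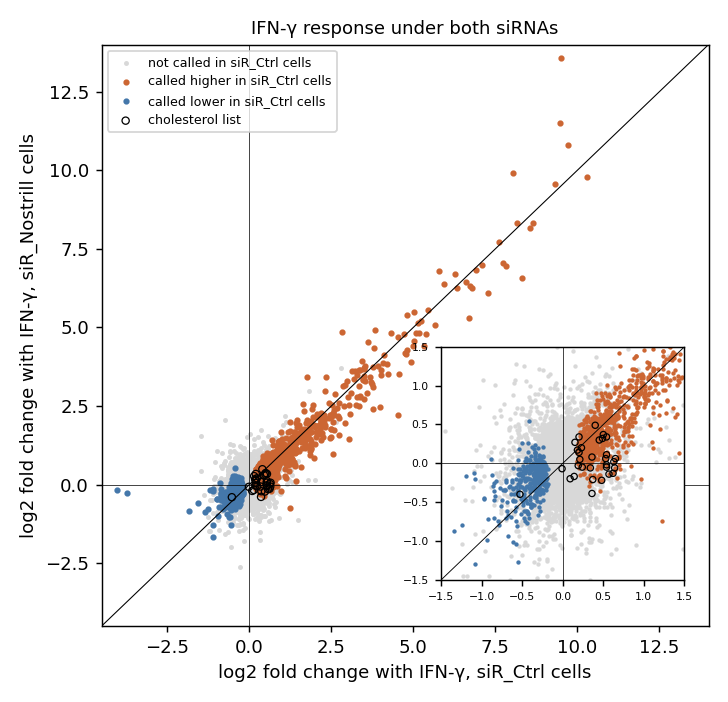
Log2 fold change with IFN-γ in siR_Nostrill cells (y) against that in siR_Ctrl cells (x), with the line of equality and an inset of the range from -1.5 to 1.5. Orange and blue points were called higher or lower in siR_Ctrl cells, and open circles mark the cholesterol list. Strongly induced genes follow the line, and most cholesterol genes lie below it.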

How the data were processed

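Poly(A) RNA of IEC4.1 cells (4 groups, 3 libraries each) had been sequenced with DNBSEQ technology. The study names SOAPnuke for read filtering, then HISAT2 and Bowtie2 with GRCm38.p6. The authors deposited, for each gene and library, an estimated count (not normalized), an FPKM and a TPM. A counting tool was not given in the sources used here. Gene length was derived from the ratio of the deposited counts to FPKM, for 12253 of 15002 genes. Columns of the authors' own comparisons were not used.

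Estimated counts were rounded and tested with edgeR 4.0.16 in R 4.3.3 (TMM, default filter on low counts, 12 libraries, quasi-likelihood test). A lowess trend (span 0.3) of each library's log2 CPM deviation on log2 length entered as an offset. Counts differed between replicates by more than sampling noise (chi-square divided by its degrees of freedom 9.63 to 99.1), so each library counted as 1 replicate. On simulated counts with a length trend (11830 genes), 97.9% of 95 genes changed by 1 and 100% of 105 changed by 2 on the log2 scale were recovered, with 3.41% of calls false. Without the offset, 81.1% and 99.0% were recovered, with 0% of calls false. The simulated trend was a straight line on log2 length, with a single assumed spread for all genes. Changes were drawn in both directions alike, whereas most real calls were higher. The share of false calls among the real ones is therefore not known from it.

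Alternatives were the trend left in, span 0.6, size factors of DESeq2, the Wald test of DESeq2 1.42.0, other count filters (none, or a mean of 5 CPM), the 6 libraries alone, the replicate number as a block, limma 3.58.1 on log2(FPKM + 1) or log2(FPKM + 0.1) at a mean FPKM of at least 0.5, and each library left out. Genes named were, per list, the 4 called members with the largest change, the 2 with the highest mean FPKM and genes that define the pathway. Over all genes they were the 20 called in each direction with the largest change among those without overlap and with an average log2 CPM over 1. Other named genes illustrate list counts and were chosen after their values were seen. Genes with a siR_Ctrl library at 0 reads are given by levels. Some genes that the rule names are not reported here. The lists and the comparison were chosen with earlier results of these data known. Coordinates and promoters are RefSeq's (GRCm38.p6), which held 14954 of the gene IDs.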

Additional observations from a re-analysis of the deposited data

How the results depend on the processing

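The 963 higher and 360 lower genes became 560 and 89 with the length trend left in, 432 and 93 with limma on log2(FPKM + 1), and 429 and 92 on log2(FPKM + 0.1). DESeq2's Wald test, also with the trend left in, called 654 and 184, and a fit on only the 6 siR_Ctrl libraries 728 and 142 (83.7% of calls higher). Limma's median log2 fold change over all genes was -0.062. With each library left out the counts ranged from 786 to 956 higher and from 192 to 343 lower. With span 0.6, size factors of DESeq2 or other filters, both counts stayed within 1.5 times. No named gene reversed its direction under any alternative, and 346 of 3880 named values fell short of the threshold, most often with the trend left in or in limma. Of 1540 list counts 223 moved by over 1.5 times. The cause was not tested.

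Replicate numbers did not pair the samples, since the correlation of deviations between siR_Ctrl and siR_Ctrl + IFN-γ libraries of the same number was 0.211, 0.481 and -0.271 for replicates 1, 2 and 3. With the replicate number as a block, 1012 genes were higher and 422 lower, of which 950 and 340 were also called without it. The interaction had 0 genes without and 248 with the block, from 0 to 3 with a library left out (3 without siR_Ctrl replicate 3 and 3 without siR_Nostrill replicate 1), and 0 under the other alternatives that can estimate it (the 6 siR_Ctrl libraries alone cannot). Genes far under 1 TPM rest on few reads, and estimated counts cannot separate close relatives.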
